A study of Mus musculus with 45 samples.

Results

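The genes described here are the nuclear-encoded subunits of the mitochondrial respiratory chain, taken by name: every gene of the expression table whose symbol begins with Nduf and a subunit letter and number, with Uqcr, with Cox4 to Cox8 and a letter, or is Sdha, Sdhb, Sdhc or Sdhd. The rule took 67 of the 22080 genes: 37 of complex I, 4 of complex II, 8 of complex III and 18 of complex IV. Ndufa4, a complex I subunit by name, is now counted in complex IV, and Cox7a2l joins complexes into supercomplexes; both were kept as named. Cyc1 and Ndufab1, which belong to the chain by function, fell outside the rule by name.

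Gene expression was measured in liver, kidney and brain of male C57BL/6 mice with 1 Affymetrix array (Mouse Gene ST v1.0) per pool. The mice were 7 weeks old when taken into the study. There were 5 diets of 8 mice each: Control (AIN-93 diet), HCD (0.5% cholesterol), HCD+Gl-1 together with HCD+Gl-2 (HCD with 1% of a Ganoderma lucidum extract, from mushrooms grown on oak sawdust without or with acetylsalicylic acid) and HCD+Sim (HCD with 0.03 g simvastatin per 100 g). The mice carried no engineered allele and were killed on day 43. By the study's methods, pools A and B held RNA of 4 mice each and pool C was a mix of both, which leaves 2 separate pools behind the 3 arrays of each group. The p-values thus measure the spread between arrays that are partly the same RNA.

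The respiratory chain passes electrons from NADH (through complex I) and from succinate (through complex II) to ubiquinone, then through complex III and cytochrome c to complex IV, which reduces oxygen. Complexes I, III and IV pump protons, and ATP synthase uses the gradient. A few subunits of complexes I, III and IV are encoded in mitochondrial DNA, while the subunits described here are made from nuclear genes and imported. Kidney cortex, above all the proximal tubule, is among the most mitochondria-rich tissues of the body. Some complex IV subunits exist as a widely expressed and a heart and skeletal muscle form, such as Cox6a1 and Cox6a2, Cox7a2 and Cox7a1, and Cox8a and Cox8b.

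All values are log2 intensities as normalized by the authors. The array medians lay between 6.76 and 6.92, arrays of the same group correlated at 0.985 to 0.997, and the members' values ran from 4.11 to 12.45. The tissue labels were checked against marker lists: proximal tubule genes averaged 12.18 to 12.34 on the kidney arrays and 6.09 to 6.45 on the liver arrays, neuron genes averaged 11.61 to 11.92 in brain and at most 6.77 elsewhere, and hepatocyte genes averaged 12.94 to 13.12 in liver, 9.58 to 9.79 in kidney and 6.04 to 6.79 in brain. Liver arrays A and B of HCD+Sim stood apart by skeletal muscle and pancreas genes, and liver array C of HCD+Gl-1 by the largest spread of members around the other arrays; both are given with the results they touch. Differentially expressed (DE) means here that a gene passed both a log2 fold change of 0.7 in either direction and an adjusted p of 0.05 (limma, Benjamini-Hochberg over all 22080 genes), and calls on the adjusted p alone are given beside it.

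The respiratory chain genes were highest in kidney, intermediate in liver and lowest in brain. In kidney against brain, 44 of 67 members were DE and higher, where 15.5% of all genes were, and 0 were DE and lower, where 14.5% were. On the adjusted p alone, 62 were higher (45.4% of all genes) and 2 lower (31.6%). The median log2 difference was 0.83 over the members and 0.07 over all genes. The 15 kidney arrays lay wholly above the 15 brain arrays for 61 members, against 24.5% of all genes. Whether a tissue held more cells rich in mitochondria or more of this RNA per cell cannot be told apart in RNA from whole tissue.

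Liver lay between the other tissues. Against brain, 13 members were DE and higher (14.9% of all genes were), 60 were higher and 2 lower on the adjusted p (55% and 32.9% of all genes), and the median difference was 0.41 (all genes 0.15). Against kidney, 3 members were DE and lower (9.92% of all genes were), 55 were lower and 6 higher on the adjusted p (31.6% and 45% of all genes), and the median difference was -0.38 (all genes 0.07). The share of members past the fold threshold was thus near or under that of all genes in both comparisons with liver, while the direction was shared by most members. The order kidney above liver above brain, with both steps past the adjusted p, held for 52 members (77.6%) and for 10.9% of all genes. After each array was centred on its own median it held for 49 members (73.1%) and for 10.7% of all genes. The arrays of the 3 tissues did not overlap at all in this order for 23 members (34.3%), against 2.93% of all genes.

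**Figure D1:**
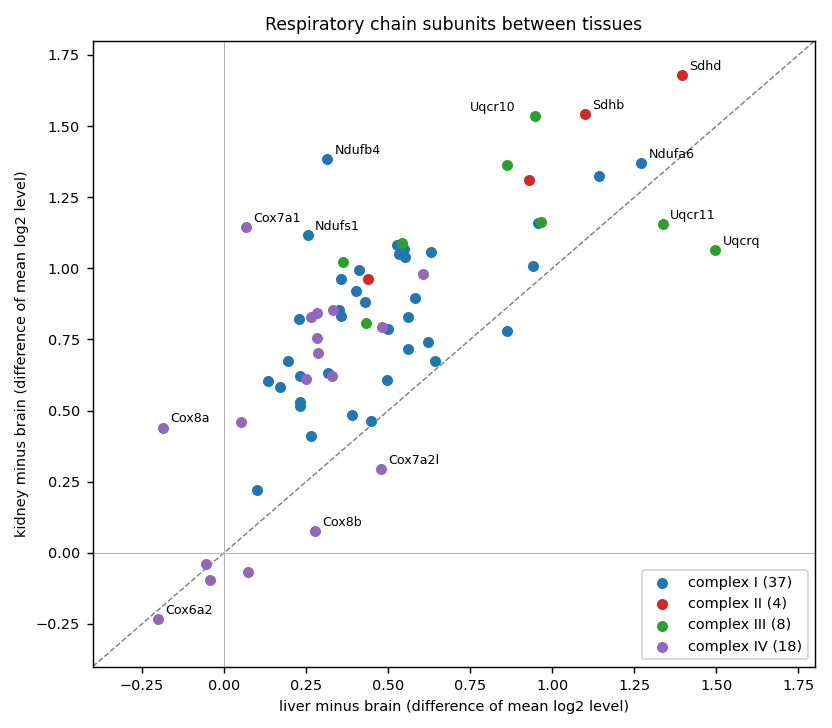
Each point is 1 of the 67 respiratory chain genes, with its log2 difference between liver and brain on the x axis and between kidney and brain on the y axis, coloured by complex (each difference from 15 arrays a tissue). Most points lie above the diagonal, where kidney exceeds liver, and complexes II and III have the highest medians on the y axis (1.43 and 1.12).

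Complex II showed the widest tissue difference, with all 4 subunits DE and higher in kidney than in brain and a median of 1.43. Sdhd, a membrane anchor, lay between 10.65 and 10.84 (median 10.75) on the kidney arrays, between 10.39 and 10.56 (median 10.48) on the liver arrays and between 8.96 and 9.21 (median 9.07) on the brain arrays. No array of 1 tissue reached the range of another. The difference between kidney and brain was 1.68 for Sdhd, 1.54 for Sdhb (the iron-sulfur subunit), 1.31 for Sdhc (the other anchor) and 0.96 for Sdha (the flavoprotein that oxidizes succinate). Sdha, which also works in the citric acid cycle, averaged 11.72 ± 0.07 in kidney, 11.20 ± 0.06 in liver and 10.76 ± 0.09 in brain (SD, n = 15 arrays).

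All 8 complex III members were DE and higher in kidney than in brain, with a median of 1.12. Uqcr10, a small accessory subunit, lay between 9.26 and 9.83 (median 9.45) in kidney, between 8.42 and 9.12 (median 8.92) in liver and between 7.79 and 8.25 (median 8.01) in brain. The 3 ranges were separate. The Rieske iron-sulfur protein Uqcrfs1 differed by 1.36 between kidney and brain, and the core proteins Uqcrc1 and Uqcrc2 by 1.09 and 1.02. Uqcrb and the hinge protein Uqcrh differed by 1.16 and 0.81. Between liver and kidney, Uqcrc2 had the largest gap of this complex, -0.66.

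A pair of complex III subunits departed from the order of the tissues. Uqcrq, which helps to hold cytochrome b, averaged 9.59 ± 0.17 in liver, 9.16 ± 0.12 in kidney and 8.10 ± 0.10 in brain (SD, n = 15), so that liver exceeded kidney by 0.43. The liver arrays (9.08 to 9.74) and the kidney arrays (8.99 to 9.32) overlapped, although most liver arrays were above. Uqcr11 was likewise higher in liver than in kidney, by 0.18, with 9.08 ± 0.19 against 8.90 ± 0.09. Of all members, Uqcrq (2.82-fold), Sdhd (2.63-fold) and Uqcr11 (2.53-fold) differed most between liver and brain.

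Complex I gave the bulk of the members, and 24 of its 37 were DE and higher in kidney than in brain, with a median of 0.83. Of the 7 core subunits, which carry the flavin and iron-sulfur clusters, 5 were DE and all 7 passed the adjusted p, with differences between 0.60 and 1.12. Ndufs1, which carries iron-sulfur clusters, averaged 10.21 ± 0.07 in kidney, 9.35 ± 0.16 in liver and 9.10 ± 0.09 in brain (SD, n = 15). Kidney exceeded liver by 0.86 for this gene, which was 1 of the 3 members DE between these tissues.

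Among the accessory subunits of complex I, Ndufb4 of the membrane arm had the largest difference between kidney and brain, 1.38. It lay between 11.18 and 11.41 (median 11.34) in kidney, between 10.15 and 10.31 (median 10.27) in liver and between 9.73 and 10.06 (median 9.94) in brain. Kidney stood well above the rest and liver close to brain, with -1.07 between liver and kidney and 0.31 between liver and brain. Ndufa6 and Ndufs6, accessory subunits near the arm that takes up NADH electrons, showed the other arrangement. Ndufa6 was higher than in brain by 1.37 in kidney and by 1.27 in liver, and Ndufs6 by 1.32 and 1.14, so that liver was close to kidney.

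Other core subunits of complex I followed Ndufs1 in order but not in size. Ndufs7, which lies on the path to the ubiquinone site, differed by 0.60 between kidney and brain. Ndufv1, which binds the flavin, differed by 1.07, its partner Ndufv2 by 0.67, Ndufs3 by 0.89 and Ndufs8 by 0.85. Each of these was lowest in brain and highest in kidney, with liver between.

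The 13 complex I members that were not DE between kidney and brain lay between 0.22 and 0.67, and all passed the adjusted p. Ndufb9, with 12.39 ± 0.04 in kidney and 11.75 ± 0.05 in brain (SD, n = 15), differed by 0.63. The smallest was Ndufa4l2, a hypoxia-responsive relative of Ndufa4, at 0.22, whereas Ndufa4 itself differed by 1.04. Liver and kidney did not differ past the adjusted p for 3 members of this complex: Ndufb11 (-0.07), Ndufb10 (-0.03) and Ndufs5 (-0.02). The last pair of these turned its sign when arrays were centred on their medians. Ndufa7 was higher in liver than in kidney, by 0.08.

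Complex IV had the smallest median difference between kidney and brain, 0.62, and 8 of its 18 members were DE. The 18 include tissue forms, and its lowest differences were all of these: Cox4i2 (-0.09), Cox6a2 (-0.23), Cox7b2 (-0.07), Cox8b (0.08) and Cox8c (-0.04). Of the other tissue forms, Cox6b2 differed by 0.46 and Cox7a1 by 1.15. A median without the tissue forms was not taken for this complex. The ubiquitous forms were among the genes past the adjusted p: Cox4i1 differed by 0.61, Cox6b1 by 0.83, Cox7a2 by 0.85 and Cox6a1 by 0.70. Cox8a was higher in kidney (11.30 ± 0.06) than in brain (10.87 ± 0.15, SD, n = 15), and its liver level of 10.68 ± 0.12 was below both. It was 1 of the 4 members whose mean was higher in brain than in liver.

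Cox5a and Cox5b, the subunits next to the mitochondrially encoded core, differed by 0.79 and 0.84 between kidney and brain, Cox6c by 0.75 and Cox7b by 0.98. Cox7c, whose values spread little within a tissue, gave 11.96 ± 0.05 in kidney, 11.66 ± 0.04 in liver and 11.33 ± 0.03 in brain (SD, n = 15). Cox7a2l was highest in liver, above kidney by 0.18 and above brain by 0.48. Cox6b2, the testis form of subunit 6b, was higher in kidney than in brain by 0.46, at levels under 7 on every array.

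Cox7a1, the heart and skeletal muscle form of subunit 7a, was highest in kidney. It lay between 7.65 and 7.98 (median 7.82) on the kidney arrays, between 6.56 and 7.14 (median 6.65) on the liver arrays and between 6.47 and 6.92 (median 6.66) on the brain arrays. The kidney arrays did not overlap with those of the other tissues, whereas liver and brain overlapped through most of their range. The difference was 1.15 between kidney and brain and -1.08 between liver and kidney, the largest between these last tissues among the members. The muscle form of subunit 6a, Cox6a2, did not follow it, with 7.27 ± 0.11 in kidney, 7.30 ± 0.24 in liver and 7.50 ± 0.10 in brain (SD, n = 15), and brain was higher than kidney by 0.23. Cox8b, the muscle form of subunit 8, differed by 0.08 between kidney and brain. Cox4i2, Cox7b2 and Cox8c, forms known from lung or testis, were dim on every array (4.11 to 6.92) and had no difference over 0.2 between tissues.

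The genes around the chain gave a mixed picture. In kidney against brain, 15.5% of all genes were DE and higher and 14.5% DE and lower. Of 17 ATP synthase genes, 13 were DE and higher (median 0.84), as were 8 of 13 citric acid cycle genes (median 0.93). The same held for 3 of the 4 chain genes outside the rule and 6 of 13 regulators of mitochondrial genes (median 0.59). Of 40 assembly factors, 11 were DE and higher and 1 was DE and lower (median 0.48), the latter being Ndufaf5, which acts in building complex I (-0.90). Cycs, which encodes cytochrome c, was higher in kidney by 1.40 and Cyc1, cytochrome c1, by 1.25. Of the regulators, Gabpa, an ETS factor known for activating respiratory chain genes, was higher in kidney by 1.18, Tfam, which packages and transcribes mitochondrial DNA, by 0.79, and Nrf1, a factor that binds many of these promoters, by 0.13.

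The subunits encoded in mitochondrial DNA differed less between the tissues. None of the 10 on the array was DE between kidney and brain by limma, 4 passed the adjusted p (40%, against 77% of all genes), and their median was 0.05. Beside this stands a limit of the scale: 9 of the 10 had values between 12.41 and 14.02, and 14.02 was the highest value in the whole table. ND6, read from the opposite strand of that DNA, lay lower, between 8.77 and 9.83, and was higher in kidney than in brain by 0.17 and in liver than in brain by 0.60. What the bright end of the scale did to these differences was not tested.

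**Figure D2:**
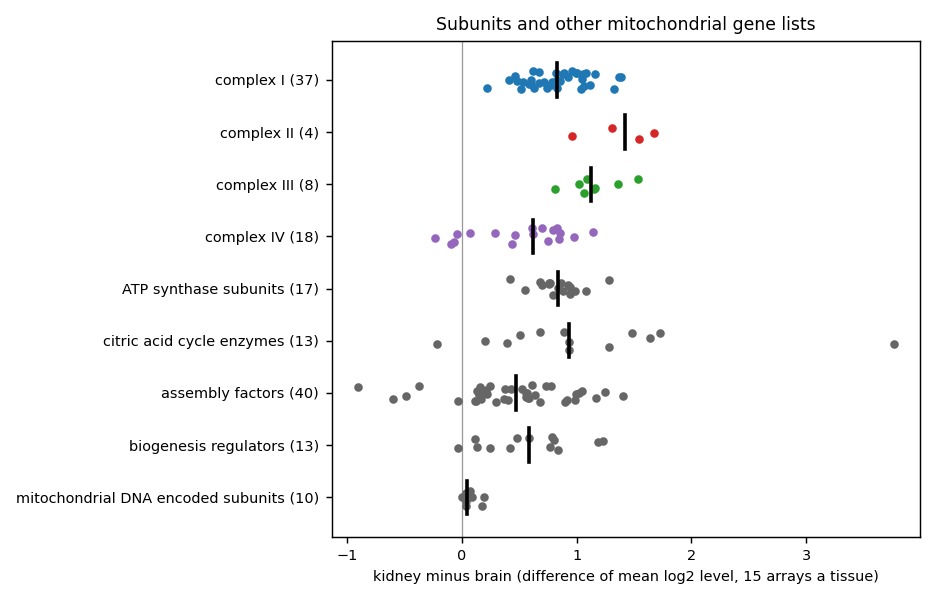
Each point is 1 gene, with its log2 difference between kidney and brain (15 arrays each) on the x axis, by complex and by gene list, with the median of each list marked. The nuclear-encoded complexes, ATP synthase and the citric acid cycle lie mostly above 0, and the 10 mitochondrially encoded genes lie near it.

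Promoter sequences were looked at because so many members moved together between tissues. RefSeq promoters (GRCm38.p6, 250 bases before to 50 after the start) matched 53 of the 67 members by symbol and 15574 genes of the table. Searched on both strands, the NRF1 motif (GCGC, then A and any base, then GCGC) was in 11 member promoters (20.8%), against 7.67% of the promoters of the table's genes and 5.19% of all 27025. The ETS motif CCGGAAG, the kind bound by Gabpa, was in 11 (20.8%, against 13.5% and 9.93%), and the YY1 motif AAGATGGC in 7 (13.2%, against 3.73% and 3.19%). The last letters of the ETS motif are the first of the YY1 motif, so these matches can overlap, and no member held both. A match is a description of the sequence and not a bound site. CpG pairs numbered 19 per member promoter at the median (2 to 39), against 16 for the table's genes.

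Stretches before the start are shown for 4 members: Ndufb4 and Sdhd, which had the largest tissue differences of complexes I and II, and Cox6a1 beside Cox7a1, a widely expressed and a muscle form. Each runs 5′ to 3′ toward the start on the gene's own strand, with motif matches in capitals. The Sdhd stretch is cut to 51 bases where the neighbouring gene Timm8b begins.
Ndufb4 (chr16:37654369-37654618, minus strand): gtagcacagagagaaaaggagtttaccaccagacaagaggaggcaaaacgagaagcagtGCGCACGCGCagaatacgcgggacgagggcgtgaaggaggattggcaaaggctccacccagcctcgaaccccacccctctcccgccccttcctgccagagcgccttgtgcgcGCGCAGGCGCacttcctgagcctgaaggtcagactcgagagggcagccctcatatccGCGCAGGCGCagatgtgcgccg
Sdhd (chr9:50603850-50603900, minus strand): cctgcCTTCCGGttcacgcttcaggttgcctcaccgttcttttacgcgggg
Cox6a1 (chr5:115348959-115349208, minus strand): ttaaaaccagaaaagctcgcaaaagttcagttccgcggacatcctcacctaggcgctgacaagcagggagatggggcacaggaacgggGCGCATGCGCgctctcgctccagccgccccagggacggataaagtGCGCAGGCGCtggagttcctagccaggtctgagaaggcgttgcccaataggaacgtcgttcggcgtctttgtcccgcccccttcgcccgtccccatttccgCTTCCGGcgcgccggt
Cox7a1 (chr7:30183921-30184170, plus strand): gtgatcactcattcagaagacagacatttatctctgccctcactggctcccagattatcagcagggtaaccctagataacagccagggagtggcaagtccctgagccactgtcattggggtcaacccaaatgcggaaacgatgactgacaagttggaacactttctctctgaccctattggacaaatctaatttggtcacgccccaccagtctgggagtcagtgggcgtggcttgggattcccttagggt
Ndufb4 held 3 NRF1 matches, 191 to 182, 79 to 70 and 22 to 13 bases before the start. The short Sdhd stretch held 1 ETS match, 46 to 40 bases before the start. Sdhd was also among the members counted with an NRF1 match, which was not within the stretch shown. Cox6a1 held 2 NRF1 matches and 1 ETS match, the latter 16 to 10 bases before the start, and 26 CpG pairs. Cox7a1 held none of the 3 motifs and only 4 CpG pairs in its 250 bases.

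The differences between diets were far smaller than those between tissues. None of the 67 was DE by limma in any of the 12 diet comparisons (the effect of HCD and of the 3 treatments given with it, in 3 tissues), where 246 of all genes (1.11%) were DE in at least 1. On the adjusted p alone, 6 members (8.96%) passed in at least 1 comparison, against 6.22% of all genes. Of the 804 log2 differences, 793 (98.6%) were under 0.3 in size, with standard errors between 0.051 and 0.119 (median 0.081). With 3 arrays against 3, an exact permutation test of a single gene could not go below 0.1, so the calls rest on the spread shared over all genes and groups.

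**Figure D3:**
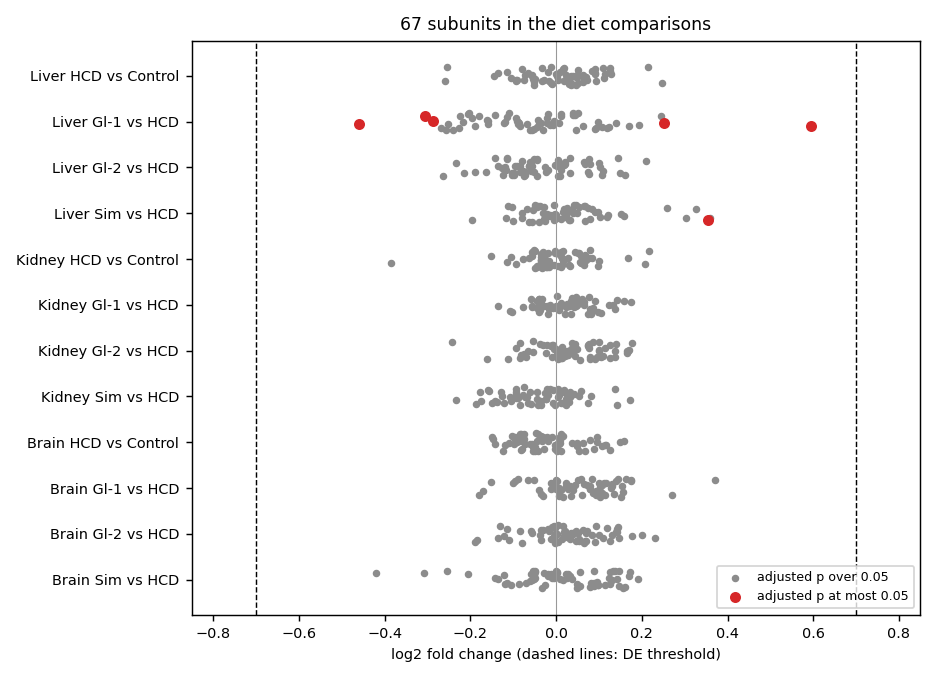
Each point is the log2 difference of 1 respiratory chain gene in 1 of the 12 diet comparisons (3 arrays against 3), with red points for those past the adjusted p of 0.05 and dashed lines at the fold threshold of 0.7. No point reaches the fold threshold, and the widest spread and 5 of the 6 red points are in liver HCD+Gl-1 against HCD.

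In liver, HCD+Gl-1 against HCD gave 5 members past the adjusted p (7.46%), where 2.48% of all genes passed and 0.163% were DE. At an unadjusted p under 0.05 there were 20 members (29.9%), against 16.6% of all genes. The 5 did not move one way: Ndufb3 and Ndufv2 rose, and Ndufb8, Ndufs8 and Cox7a2 fell.

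Ndufb3, an accessory subunit of the membrane arm of complex I, read 7.64, 7.62 and 7.56 on the HCD arrays A, B and C and 8.17, 8.14 and 8.29 on the HCD+Gl-1 arrays. The Control arrays read 7.87, 7.63 and 8.10, so that HCD lay at the low end of them and HCD+Gl-1 above them. The log2 fold change was 0.59 (SE 0.10, adjusted p = 0.00074). HCD+Sim gave 8.01, 8.15 and 7.74 and HCD+Gl-2 gave 7.77, 7.79 and 7.75, all above the HCD arrays.

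Ndufb8, another membrane arm subunit, whose protein is a common antibody marker of complex I, went the other way. It read 9.09, 9.05 and 9.13 on the HCD arrays and 8.66, 8.84 and 8.39 on the HCD+Gl-1 arrays, with 8.88, 8.77 and 8.88 on the Control arrays. HCD was above both and did not overlap with either, and HCD+Gl-1 overlapped with Control. The log2 fold change was -0.46 (SE 0.08, adjusted p = 0.00106).

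The other 3 changes were smaller. Ndufv2, a core subunit of the NADH-oxidizing tip, read 9.76, 9.76 and 9.75 in HCD and 9.98, 9.99 and 10.05 in HCD+Gl-1 (log2 fold change 0.25, SE 0.07, adjusted p = 0.0377). Ndufs8, a core iron-sulfur subunit, read 9.99, 9.92 and 9.94 in HCD and 9.63, 9.83 and 9.47 in HCD+Gl-1 (-0.31, SE 0.07, adjusted p = 0.014). Cox7a2, the widely expressed form of subunit 7a, read 9.09, 9.06 and 8.95 in HCD and 8.79, 8.91 and 8.52 in HCD+Gl-1 (-0.29, SE 0.08, adjusted p = 0.0372). HCD and HCD+Gl-1 did not overlap for any of the 3, although array B lay close to HCD for the pair that fell.

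**Figure D4:**
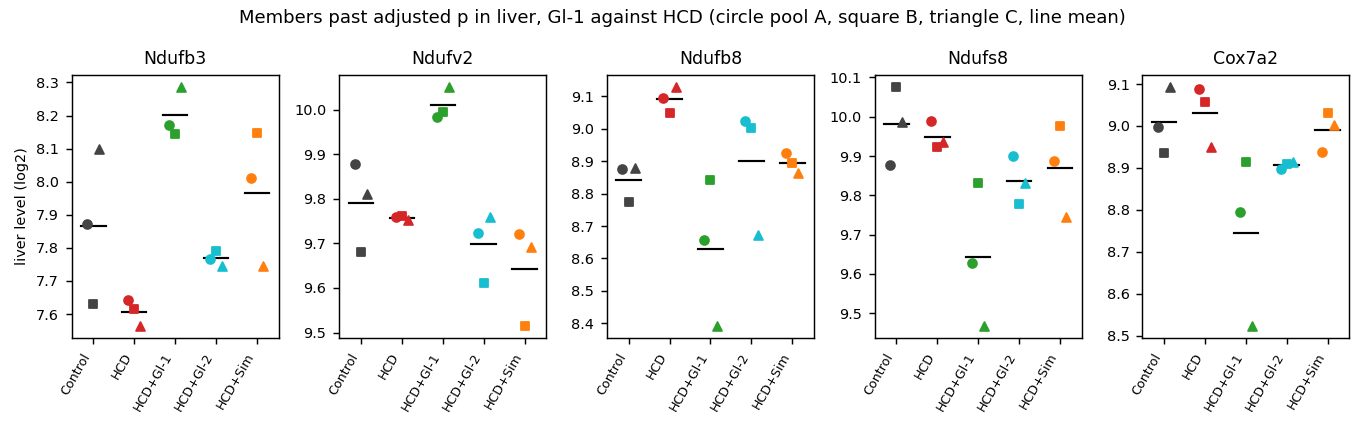
Each panel shows 1 of the 5 genes past the adjusted p in liver HCD+Gl-1 against HCD, with the log2 intensity of every liver array (3 a diet) and a bar at each diet's mean. Ndufb3 and Ndufv2 lie higher in HCD+Gl-1 than in HCD and the other 3 lower, with array C farthest out for each gene.

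The HCD+Gl-1 arrays differed among themselves in how far the respiratory chain genes lay from the HCD mean. On array C, 19 of 67 members were over 0.3 away, on array A 4 and on array B 1. Array C also had the largest spread of members around the other arrays of all 45, and array B had the second largest. Without array B, 14 members (20.9%) passed, 4 higher and 10 lower, against 9.48% of all genes, and without array A or array C 2 passed, against 5 with all arrays. With an HCD array left out, 2 to 4 passed. The call of Ndufv2 was lost with 5 of the 6 arrays left out, that of Cox7a2 with 4 and that of Ndufs8 with 3. The 2 genes left were Ndufb3 and Ndufb8, which passed with any single array of the comparison left out, at 0.55 to 0.62 and -0.57 to -0.34.

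The calls also drew on the spread estimated over all 3 tissues. The median SD of the members was 0.101 in liver, 0.093 in brain and 0.068 in kidney. With the liver arrays fitted alone, none of the 5 passed by limma: the adjusted p was 0.0536 for Ndufb3, 0.129 for Ndufb8, 0.294 for Ndufs8, 0.316 for Cox7a2 and 0.318 for Ndufv2. Over all genes, the number past the adjusted p then fell from 547 to 26.

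The difference in Ndufb8 between HCD+Gl-1 and HCD was set against the other tissues. In kidney it read 9.42, 9.24 and 9.36 with HCD and 9.62, 9.37 and 9.55 with HCD+Gl-1, and in brain 8.46, 8.46 and 8.44 against 8.47, 8.50 and 8.56. In both tissues the mean with HCD+Gl-1 was the higher one, and the kidney arrays overlapped. The change in liver minus that in kidney was -0.64 (SE 0.12, adjusted p = 0.0025), 1 of 67 members against 0.389% of all genes. Against brain, Ndufb8 (-0.52, adjusted p = 0.0297) and Ndufs8 (-0.45, adjusted p = 0.0314) passed, against 0.362% of all genes.

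With simvastatin in liver, 1 member passed the adjusted p (1.49%, against 1.1% of all genes). Cox7a1 read 6.65, 6.63 and 6.63 on the HCD arrays and 7.14, 6.95 and 6.88 on the HCD+Sim arrays A, B and C, with 6.82, 6.78 and 6.59 in Control. The HCD+Sim arrays lay above all arrays of both diets (log2 fold change 0.35, SE 0.09, adjusted p = 0.024). The other muscle forms were highest on arrays A and B. Cox6a2 read 7.50, 8.01 and 7.31 against 7.17, 7.35 and 7.38 in HCD (0.30, adjusted p = 0.19). Cox8b read 6.41, 6.67 and 6.07 against 6.10, 6.15 and 5.92 (0.33, adjusted p = 0.216). Array C lay within the HCD range for both.

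The same arrays carried RNA typical of other tissues. The mean of 16 skeletal muscle genes was 7.25 on array A, 7.57 on array B and 6.47 on array C, against 6.33 to 6.51 in HCD and 6.72 to 6.88 in Control. Acta1, skeletal muscle actin, was higher than in HCD by 1.19 (adjusted p = 0.0129) over the 3 arrays. The mean of 11 pancreatic acinar genes was 7.33, 7.94 and 6.20, against 5.94 to 6.19 on the other liver arrays. In liver HCD+Sim against HCD, 7 of the 16 muscle genes and 8 of the 11 pancreas genes were DE and higher, against 44 of all 22080 genes.

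With array C alone standing for HCD+Sim, the difference was 0.01 for Cox6a2, 0.01 for Cox8b and 0.25 for Cox7a1, values of a single array whose spread is assumed to be that of the other groups. The Cox7a1 call was lost with any of 5 of the 6 arrays left out: HCD A, B or C (adjusted p = 0.0757, 0.0796 and 0.0789) and HCD+Sim A or B (adjusted p = 0.113 and 0.0514). Its fold change then lay between 0.28 and 0.37, and with the liver arrays fitted alone the adjusted p was 0.263. Cox6a2 and Cox8b passed without array C of HCD+Sim (adjusted p = 0.0264 and 0.0415). Array C lay below both A and B for 14 of 16 muscle genes and 10 of 11 pancreas genes in this group, although the methods give it as their mix. Of all genes, 73.9% had array C outside A and B in this group, on either side. The part of the muscle RNA in these differences was not tested.

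**Figure D5:**
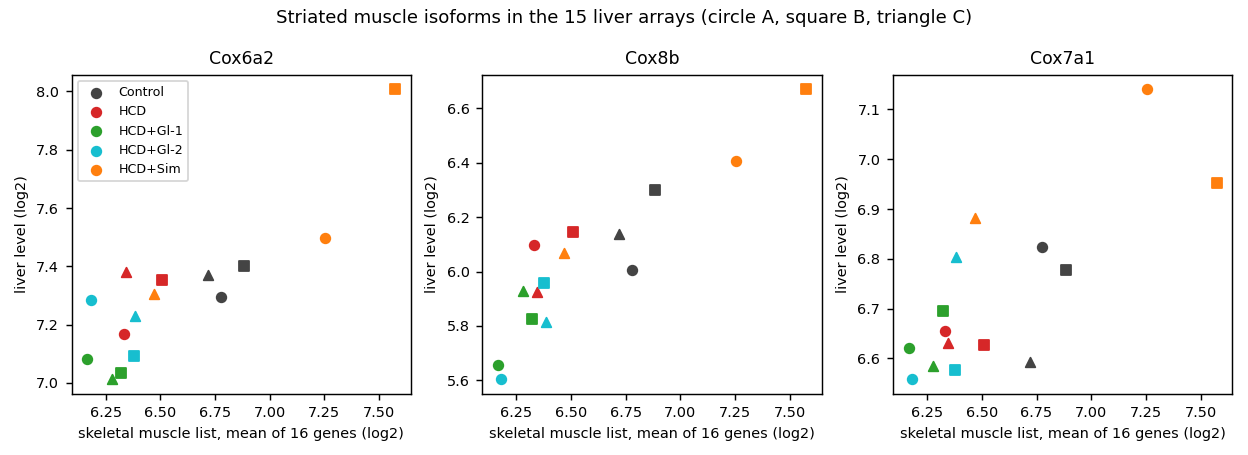
Each point is 1 liver array, with the mean log2 intensity of 16 skeletal muscle genes on the x axis and the log2 intensity of Cox7a1, Cox6a2 or Cox8b on the y axis, coloured by diet. Arrays A and B of HCD+Sim lie far to the right (7.25 and 7.57), and they are also the highest arrays in each panel.

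Comparing the liver treatments with one another used the same arrays again, so these comparisons are not independent of those above. HCD+Gl-2 against HCD+Gl-1 gave 4 members lower (5.97%, against 3.94% of all genes): Ndufv2 (-0.31, adjusted p = 0.00792), Ndufb3 (-0.43, adjusted p = 0.0148), Ndufc2 (-0.35, adjusted p = 0.0153) and Ndufs1 (-0.33, adjusted p = 0.0224). All are of complex I, as are 37 of the 67 members. Each of these calls was lost without HCD+Gl-1 array C. The call of Ndufs1 was lost with 4 of the 6 arrays left out, that of Ndufc2 with 3, Ndufb3 with 2 and Ndufv2 with 1. For Ndufs1, HCD+Gl-1 array B read 9.28 and HCD+Gl-2 array A 9.27. HCD+Gl-1 against HCD+Sim gave Ndufv2 higher (0.37, adjusted p = 0.00155) and 4 lower (5 in all, 7.46%, against 4.09%): Cox6a2, Cox8b and Cox7a1 (-0.56, -0.58 and -0.36) and Ndufa7 (-0.28, adjusted p = 0.0321). The arrays of these diets overlapped for Ndufa7, whose call was lost with 4 of the 6 arrays left out. The call of Cox7a1 was lost with 3 and that of Cox8b with 1, while those of Ndufv2 and Cox6a2 were kept. HCD+Gl-2 against HCD+Sim gave the 3 muscle forms lower (4.48%, against 1.31%), at -0.40 for Cox6a2, -0.59 for Cox8b and -0.35 for Cox7a1. These calls were lost with 4 of the 6 arrays left out for Cox6a2, 4 for Cox7a1 and 2 for Cox8b. With array C alone standing for HCD+Sim, the differences from HCD+Gl-1 were -0.26 for Cox6a2, -0.27 for Cox8b and -0.25 for Cox7a1, and those from HCD+Gl-2 were -0.10, -0.28 and -0.24. These single-array values are given without a test.

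Against Control in liver, HCD+Gl-1 gave 3 members past the adjusted p (4.48%, against 3.58% of all genes). Ndufs8 was lower by -0.34 (adjusted p = 0.00425), Cox7a2 lower by -0.27 (adjusted p = 0.0451), and Ndufc2, an accessory subunit of the membrane arm, higher by 0.31 (adjusted p = 0.0304). Each of these calls was lost without HCD+Gl-1 array C. The call of Cox7a2 was lost with 5 of the 6 arrays left out, that of Ndufc2 with 4 and that of Ndufs8 with 2. Ndufc2 read 10.13, 9.85 and 10.41 with HCD+Gl-1 and 9.81, 9.77 and 9.88 in Control, so that array B lay within Control. HCD+Gl-2 and HCD+Sim against Control gave 0 by limma, where 2.86% and 1.54% of all genes passed the adjusted p. At an unadjusted p under 0.05 there were 3 members (4.48%, against 14.2% of all genes) and 4 members (5.97%, against 11.8%), shares below those of all genes.

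High cholesterol alone gave no member past the adjusted p by limma in any tissue, where 1.34% of all genes passed in liver, 0.131% in kidney and 0.0543% in brain. At an unadjusted p under 0.05 there were 4 members in liver (5.97%, against 10.3% of all genes), 1 in kidney (1.49%, against 4.47%) and 0 in brain (against 6.44%). In liver the member with the lowest p was Ndufb8 (0.25, adjusted p = 0.164). In kidney it was Cox6b2, a form known from testis, with 6.97, 6.98 and 6.82 in Control and 6.50, 6.60 and 6.52 with HCD (-0.39, adjusted p = 0.0645). The 3 HCD arrays lay below all Control arrays for this dim gene. In brain the lowest p was that of Ndufa7 (-0.15, adjusted p = 0.814).

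The treatments in kidney and brain and HCD+Gl-2 in liver also gave 0 by limma on the adjusted p. At an unadjusted p under 0.05 there were 5 members for liver HCD+Gl-2 (7.46%, against 12.6% of all genes). In kidney there were 1, 7 and 2 with HCD+Gl-1, with HCD+Gl-2 and with simvastatin (1.49%, 10.4% and 2.99%, against 4%, 8.97% and 6.19%). In brain there were 7, 3 and 7 (10.4%, 4.48% and 10.4%, against 5.55%, 6.65% and 5.53%). Of all genes, 1.7% passed the adjusted p in liver HCD+Gl-2, 0.267%, 0.996% and 0.222% in the kidney comparisons and 0.0181%, 0.0362% and 0.0181% in the brain comparisons. The largest difference among them was Cox5a in brain HCD+Sim, with 9.42, 9.43 and 9.37 in HCD and 8.98, 8.87 and 9.10 with simvastatin (-0.42, adjusted p = 0.172). Cox5a encodes a complex IV subunit with no tissue form, and the simvastatin arrays lay below all HCD arrays. In the remaining comparisons the member with the lowest p was Cox6b1 in brain with HCD+Gl-1 (0.27, adjusted p = 0.166) and with HCD+Gl-2 (0.15, adjusted p = 0.668). In kidney it was Ndufb8 with HCD+Gl-1 (0.18, adjusted p = 1), Cox4i1 with HCD+Gl-2 (0.18, adjusted p = 0.412) and Cox6a1 with simvastatin (-0.23, adjusted p = 0.619). In liver with HCD+Gl-2 it was Ndufb8 (-0.19, adjusted p = 0.307).

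The genes around the chain were counted in the same way. None of the ATP synthase genes or of the mitochondrially encoded genes passed the adjusted p in any of the 12 comparisons by limma. In liver HCD+Gl-1 against HCD, 1 of 40 assembly factors (2.5%), 1 of 13 regulators (7.69%) and 2 of 13 citric acid cycle genes (15.4%) passed, against 2.48% of all genes, all higher: the assembly factor Ndufaf4 (0.44), the citric acid cycle genes Idh3a (0.42) and Sucla2 (0.30), and Gabpa (0.33). The mean of the 13 citric acid cycle genes ran from 10.16 to 10.39 over the HCD+Gl-1 arrays and from 10.17 to 10.22 over the HCD arrays, which overlapped. Whether the calls of these list genes hold with single arrays left out was not tested. In liver HCD+Gl-2, the citrate synthase gene Cs fell by 0.28 on the log2 scale.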

How the data were processed

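Pooled RNA for 45 arrays (15 each of liver, kidney and brain) was hybridised to Affymetrix Mouse Gene ST v1.0. The authors deposited log2 intensities after RMA with quantile normalization and a batch correction by ComBat, with 1 probe set kept per gene, the one of highest interquartile range. The batches are not named, so no within-batch value was computed. Gene symbols are those of the table, where 13 were turned into dates and are not named.

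All 45 arrays and 22080 genes entered 1 limma 3.58.1 model (R 4.3.3) of 15 group means. The p-values rest on variances moderated across genes (prior degrees of freedom 7.34, residual 30) and were Benjamini-Hochberg adjusted within each comparison. The methods' thresholds defined DE. Named genes were members past the adjusted p between diets (the member of lowest p where none passed), the 5 largest non-overlapping differences in each direction between tissues, and core complex I, complex II, complex III and tissue-form genes, of which 1 is not reported here. The members and lists were chosen with earlier results of these data known. Cox5b, Cox6c, Cox7c, Ndufb9, Ndufb10, Ndufb11 and Ndufs5 were named after their values were seen.

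RefSeq promoters (GRCm38.p6) were matched by symbol, and figures were drawn with matplotlib 3.10.9. Alternatives were the arrays entering the fit, leaving out pool C, a block for pool letter, a brightness filter, 2 other scalings, moderation with trend, no fold threshold and each array left out. The number of arrays limits the precision.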

Additional observations from a re-analysis of the deposited data

Results flagged for a closer look

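The response of Ndufb8 to HCD+Gl-1 against HCD differed between tissues by the test of the difference itself. The log2 change in liver minus that in kidney was -0.64 (SE 0.12, adjusted p = 0.0025), and it ran from -0.74 to -0.52 with each of the 12 arrays left out in turn, past the threshold every time. With pools A and B only it was -0.49 and did not pass (adjusted p = 0.106), nor did it pass with only the groups compared in the fit (adjusted p = 0.124). In liver minus brain it was -0.52 (adjusted p = 0.0297), ran from -0.63 to -0.40 and lost the call for 8 of the 12 arrays. Ndufs8 differed between liver and brain by -0.45 (adjusted p = 0.0314), with a range of -0.54 to -0.36 and 8 of 12 calls lost. Of all genes, 0.389% passed the test of liver against kidney and 0.362% that of liver against brain. What lies behind these differences was not tested.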

How the results depend on the processing

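No direction of a called difference turned under any alternative, and the DE counts between tissues stayed within 1.5 times except where the fold threshold was dropped, which gave 61 for liver against kidney, 62 for liver against brain, 5 for liver HCD+Gl-1 against HCD and 1 for liver HCD+Sim against HCD. All further counts are of members past the adjusted p, unless given as DE. With only the arrays of the tissues compared, the count was 0 for liver HCD+Gl-1 against HCD, HCD+Sim against HCD, HCD+Gl-2 against HCD+Gl-1, each extract against HCD+Sim, HCD+Gl-1 against Control, and the HCD+Gl-1 effect in liver against brain. With only the groups compared it was again 0 for these, and 1 for HCD+Gl-1 against HCD. With pools A and B only, it was 1 for liver HCD+Gl-1 against HCD, 2 for HCD+Sim against HCD, 2 for brain HCD+Sim, 2 for liver HCD+Gl-2 against Control, 3 for HCD+Gl-1 against HCD+Sim (1 DE), 0 for HCD+Gl-2 against HCD+Gl-1, 0 for the HCD+Gl-1 effect in liver against either other tissue and 1 for the HCD+Sim effect in liver against brain, with 1 DE for HCD+Gl-2 against HCD+Sim. With brighter genes only (11040 genes, 61 members), it was 5 for the HCD+Gl-1 effect in liver against brain, 7 for HCD+Gl-2 against HCD+Gl-1, 10 for HCD+Gl-1 against HCD+Sim and 9 for HCD+Gl-1 against Control; moderation with trend gave 5, 7, 10 and 7. Quantile normalization within tissues gave 0 for HCD+Sim against HCD, 1 for HCD+Gl-2 against HCD+Sim and 5 for HCD+Gl-1 against Control; centring gave 0, 1 and, for the HCD+Gl-1 effect in liver against brain, 0. Without liver HCD+Sim arrays A and B, chosen after seeing the data, it was 0 for HCD+Sim against HCD, 3 for HCD+Gl-1 against HCD+Sim and 0 for HCD+Gl-2 against HCD+Sim. The pool letter as a block gave 1 for kidney HCD against Control and changed no other count by over 1.5 times. Same-letter arrays of a tissue were slightly more alike than other-letter arrays. Their median correlation was 0.0365, over 0.1 for 22 of 90 pairs, against -0.0144 and 24 of 180. For the same diet in different tissues it was 0.0119 with the same letter (over 0.1 for 3 of 45) and -0.0068 with another (2 of 90). Diet by pool as a random block had a consensus correlation of 0.0173. With each array left out, counts ran from 2 to 14 for liver HCD+Gl-1 against HCD, 0 to 4 for HCD+Sim against HCD, 0 to 14 for HCD+Gl-2 against HCD+Gl-1, 3 to 19 for HCD+Gl-1 against HCD+Sim (DE 0 to 2), 0 to 3 for HCD+Gl-2 against HCD+Sim (DE 0 to 1), 0 to 17 for HCD+Gl-1 against Control, 0 to 1 for brain HCD+Sim, 1 to 6 for the HCD+Gl-1 effect in liver against kidney (DE 0 to 1) and 0 to 9 in liver against brain. The cause of these shifts was not tested. Fold changes moved by differing amounts with each array left out. For Ndufb3 and Ndufb8 in liver HCD+Gl-1 against HCD they ran from 0.55 to 0.62 and from -0.57 to -0.34. Others moved more for their size, such as Cox7a2 in the same comparison (-0.37 to -0.18). Ndufc2 in HCD+Gl-1 against Control ran from 0.17 to 0.45, and Ndufs1 in HCD+Gl-2 against HCD+Gl-1 from -0.46 to -0.18. The 6 dim members dropped by the brightness filter were Cox4i2, Cox6b2, Cox7b2, Cox8b, Cox8c and Ndufa4l2.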
